A study of Rattus norvegicus with 8 samples.

Results

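The genes described here encode parts of the ciliary axoneme, the microtubule core of motile cilia, in lung tissue of rats (Rattus norvegicus). They were chosen by symbol, as Dnah, Dnai, Dnaaf, Cfap, Rsph, Tekt or Drc followed by a digit, and by a mean of at least 0.1 FPKM over all 8 libraries. FPKM is the number of fragments scaled to transcript length and to sequencing depth. Of the 32623 genes in the deposited table, 60 had such a symbol and 54 of these reached that mean. RNA from whole lung was enriched for polyadenylated transcripts with oligo(dT) beads and sequenced in 2 groups of 4 libraries: MCT_Lung1 to MCT_Lung4 from rats given monocrotaline, a plant alkaloid used to model pulmonary hypertension, and Ctrl_Lung1 to Ctrl_Lung4 from control rats. Dose, time after treatment, age, strain and any control agent are not in the labels. Nor do the labels state that each library is a different rat, so a p-value here measures library-to-library spread, some of which may be technical.

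In the lung, motile cilia stand on the multiciliated cells of the airways and move mucus out of the lung. Their axoneme is a ring of doublet microtubules around a central pair. Dynein arms on the doublets drive the beat, while radial spokes, the nexin-dynein regulatory complex and the central apparatus control it. Dyneins are put together in the cytoplasm by assembly factors before they enter the cilium. Many axoneme genes are transcribed under RFX factors and FOXJ1, which are known to switch on the motile cilium programme. The mean that chose the members uses the libraries of both groups alike, and is given only as a description.

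As the members moved together between libraries, the promoters of those with an entry in RefSeq (build GRCr8) were searched for the RFX core site GTTGCC on both strands. This search covered 250 bases before to 50 bases after the annotated start. Of the 54 genes, 45 had an entry, and 15 of these (33.3%) held the core site, against 12.2% of all 33469 promoters in the table. Those promoters were not limited to genes expressed in lung, as the members were, so the shares are of unlike sets. A full X-box, written GTTNCC and GGNAAC with 0 to 3 bases between them, was present in 2 of the 45 (4.44%, against 0.902% of all promoters) and can contain the core site. The forkhead motif GTAAACA was found in 2 (4.44%, against 3.78%). A match is a description of the letters and not a measured binding site. Shown here are both full X-boxes and core sites from other axoneme parts, each with 15 flanking bases on either side or up to the start. Capitals mark the motif, and the strand is that of the gene.
Cfap298, full X-box, chr11:43677585-43677628, minus strand: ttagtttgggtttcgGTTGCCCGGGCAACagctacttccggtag
Dnaaf2, full X-box, chr6:93406383-93406426, minus strand: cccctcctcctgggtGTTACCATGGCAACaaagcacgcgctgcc
Cfap20, core site, chr19:9614812-9614847, plus strand: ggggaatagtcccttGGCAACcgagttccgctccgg
Tekt2, core site, chr5:143907733-143907768, minus strand: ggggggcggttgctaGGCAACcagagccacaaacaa
Tekt1, core site, chr10:57479140-57479175, minus strand: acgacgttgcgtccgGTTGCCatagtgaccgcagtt
Dnai2, core site, chr10:100258952-100258987, plus strand: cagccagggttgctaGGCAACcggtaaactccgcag
Drc1, core site, chr6:31779257-31779290, minus strand: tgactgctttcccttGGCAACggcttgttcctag
Dnah2, core site, chr10:54766051-54766086, minus strand: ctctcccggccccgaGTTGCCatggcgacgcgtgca
In Cfap298, Dnaaf2, Cfap20 and Tekt2 the library MCT_Lung1 was under 1.5 times the mean of the other MCT libraries. In Tekt1, Dnai2, Drc1 and Dnah2 it was over 2 times that mean. The genes shown were picked from 12 with a motif wholly before the start, so they give no shares for either kind. Both full X-boxes, in the strict form written above, lay in genes of the first kind. Looser pairs, with gttgcta directly before GGCAAC, stand in the Tekt2 and Dnai2 windows, so in genes of both kinds. Whether the letters go with the library pattern was not tested.

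The libraries held an estimated 10.8 to 18.1 M read pairs each. All genes together separated the groups on the first principal component (34% of the variance), and MCT_Lung1 stood apart from the other 7 libraries on the second (15.3%). Sftpc, the surfactant protein that marks alveolar type 2 cells of the lung, had 13663 to 17053 FPKM in MCT lungs and 18776 to 26795 FPKM in control lungs. No pair of libraries agreed within counting noise, as a repeat deposit of 1 library would. Across all 16715 genes tested, 3424 (20.5%) passed the threshold in MCT against control lungs, an adjusted p under 0.05 in edgeR's quasi-likelihood test with Benjamini-Hochberg adjustment over all genes tested, of which 1845 were higher and 1579 lower in MCT lungs.

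None of the 54 axoneme genes passed that threshold in either direction, against the 20.5% of all genes tested. At an unadjusted p under 0.05 there were 2 members (3.7%), Cfap36 and Tekt2, against 33.8% of all genes tested. The log2 fold change, MCT minus control, was positive for 49 members and negative for 5, with a median of 0.27 against 0.03 over all genes tested. In no member did the 4 MCT values and the 4 control values fail to overlap, whereas they did so in 25.0% of all genes tested. The standard error of the log2 fold change was 0.47 for the median member and 0.17 for the median gene, so smaller changes were detectable for most genes than for most axoneme genes.

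MCT_Lung1 was the library that set the sign. Without it the members' median log2 fold change was -0.28, and 46 of the 54 were negative, while leaving out each other library in turn gave medians of 0.08 to 0.57. Without both MCT_Lung1 and Ctrl_Lung1 the median was -0.03, with 30 negative, and 1 member, Cfap36, was called higher (1.85%, against 10.8% of all genes tested that were called higher in MCT lungs). With DESeq2 on all 8 libraries, Cfap36 and Tekt2 were called higher, with adjusted p-values of 0.0236 and 0.0361, against 13.9% of all genes tested.

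**Figure D1:**
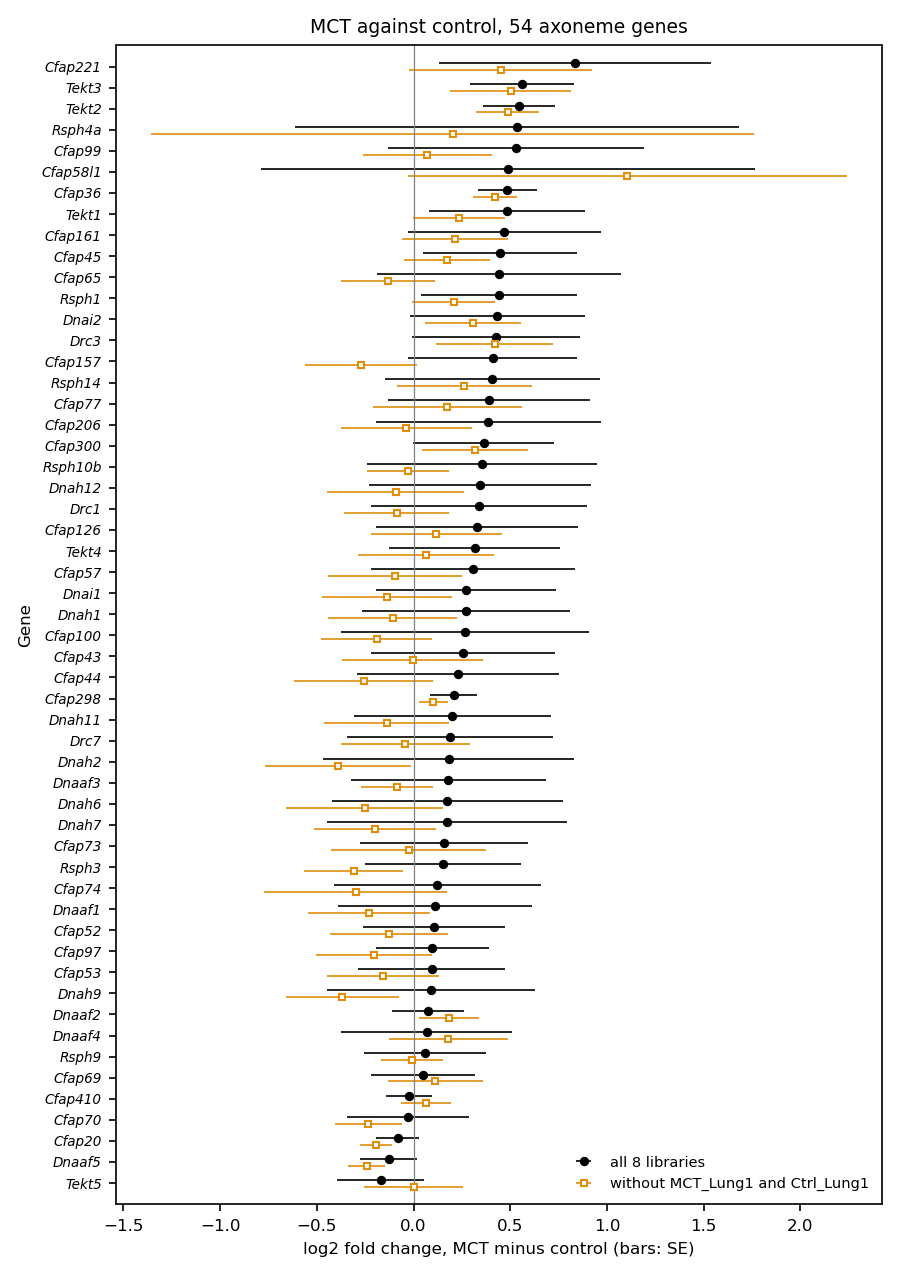
Log2 fold change of each of the 54 axoneme genes, MCT minus control, from edgeR (points, with bars of 1 standard error). Filled circles use all 8 libraries and open squares leave out MCT_Lung1 and Ctrl_Lung1. With all 8 libraries 49 of 54 points lie above 0, and without those libraries 30 lie below 0.

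Levels differed between libraries of the same group more than between the groups. To set each library against its own group, the log2 CPM (counts scaled to library size) of a gene was compared with the mean of the other 3 libraries of that group, and the median was taken over the 54 genes. This gave 1.67 for MCT_Lung1, which is 3.17-fold, -0.30 for MCT_Lung2, -0.12 for MCT_Lung3 and -1.04 for MCT_Lung4. In the control group it was 0.93 for Ctrl_Lung1, which is 1.91-fold, -0.63 for Ctrl_Lung2, -0.47 for Ctrl_Lung3 and 0.19 for Ctrl_Lung4. The same median over all genes tested lay between -0.01 and 0.01 in every library. One library in each group was therefore high, and MCT_Lung4 was the low extreme of the MCT group.

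MCT_Lung1 held the highest log2 CPM of the 8 libraries for 49 of 54 members (90.7%), against 17.8% of all genes tested. Ctrl_Lung1 was highest for the other 5 and second for 42. MCT_Lung4 was lowest of the 8 for 29 members and lowest of its own group for 47, and no member was lowest of the 8 in MCT_Lung1, Ctrl_Lung1 or Ctrl_Lung4. On the FPKM scale, 43 members (79.6%) were at least 2 times higher in MCT_Lung1 than the mean of the other MCT libraries, as were 6.81% of all genes tested. In Ctrl_Lung1, 20 members (37%) were at least 2 times above the mean of the other control libraries, as were 4.94% of all genes tested. The SD of log2 CPM within the MCT group was 0.92 for the median member and 0.23 for the median gene, and within the control group it was 0.62 and 0.23. Summed FPKM over the 54 genes was 689, 332, 358 and 259 in MCT_Lung1 to MCT_Lung4, and 480, 262, 285 and 363 in Ctrl_Lung1 to Ctrl_Lung4. In bulk tissue, fewer ciliated cells and less of these RNAs per ciliated cell cannot be told apart.

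**Figure D2:**
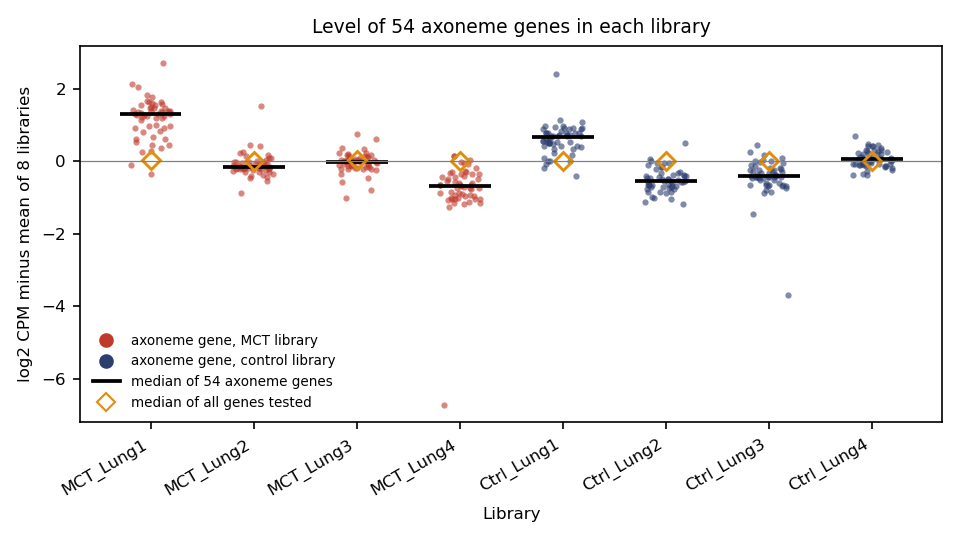
Log2 CPM of the 54 axoneme genes in each library, minus each gene's mean over all 8 libraries. Points are genes (red MCT, blue control), black lines are medians over the 54 genes and open diamonds are medians over all genes tested, which stay near 0 while the axoneme medians run from 1.3 in MCT_Lung1 to -0.67 in MCT_Lung4.

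**Figure D3:**
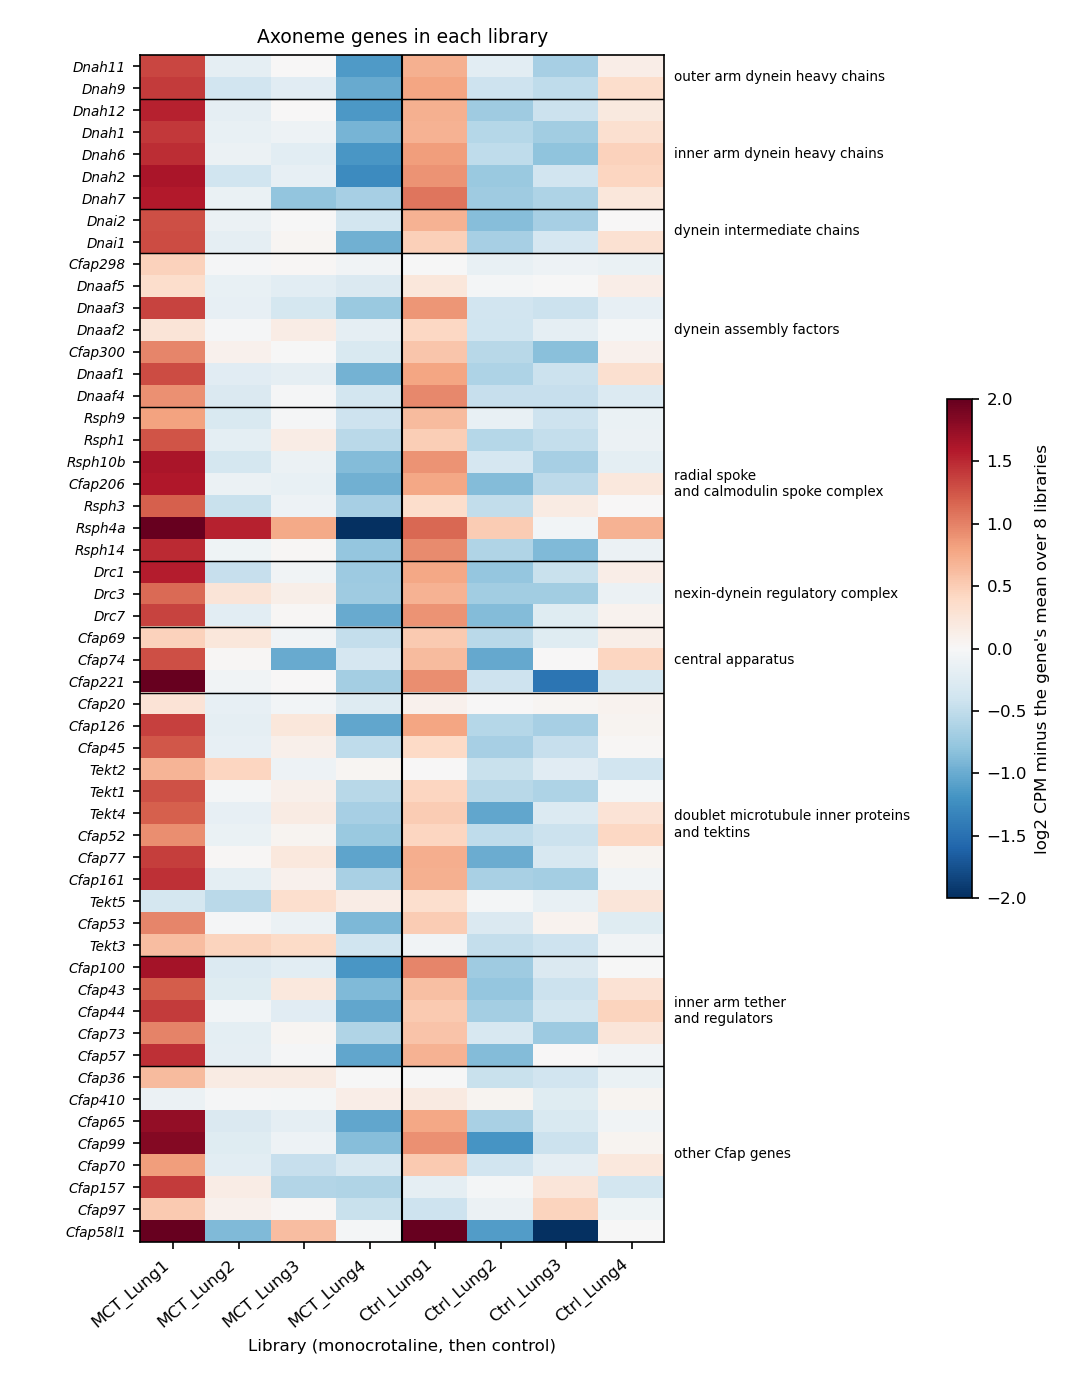
Each row is 1 axoneme gene, grouped by its place in the axoneme, and each column is 1 library, with colour giving log2 CPM minus the gene's mean over 8 libraries. The MCT_Lung1 and Ctrl_Lung1 columns are red in most rows, and the pale rows include Cfap410, Cfap20, Dnaaf5, Cfap298, Dnaaf2 and Tekt5.

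The outer dynein arms, which give the cilium most of its beat frequency, were represented by a pair of heavy chains. These are the motor subunits, and in human airway cilia Dnah11 sits near the base and Dnah9 towards the tip. Dnah9 (chr10:52351192-52710862, minus strand, Rnor_6.0) had 3.38, 1.01, 1.14 and 0.65 FPKM in MCT lungs, against 2.27, 0.95, 0.92 and 1.71 FPKM in control lungs. The MCT values both topped and undercut the control values, and the log2 fold change was 0.09 ± 0.54 (SE), adjusted p = 0.93 in edgeR. Dnah11 (chr6:145785275-146099053, minus strand) had 3.74, 1.34, 1.56 and 0.69 FPKM in MCT lungs, against 2.51, 1.27, 0.95 and 1.69 FPKM in control lungs, with a log2 fold change of 0.20 ± 0.51 and an adjusted p of 0.826. Its order of libraries within the MCT group was that of Dnah9. Dnah5, the heavy chain that pairs with these in human airway cilia, was below the minimum mean, at 0 to 0.09 FPKM in MCT lungs and 0 to 0.1 FPKM in control lungs. Why Dnah5 was listed so low was not tested.

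The 5 inner arm heavy chains, Dnah1, Dnah2, Dnah6, Dnah7 and Dnah12, shape the waveform of the beat. They had the widest swing of the classes with 5 or more genes, with MCT_Lung1 at a median of 3.95 times the other MCT libraries and MCT_Lung4 at 0.339 times. In all 5, MCT_Lung1 was the highest library and Ctrl_Lung1 the second. Dnah12 (chr16:2379480-2534131, plus strand) had 8.33, 2.58, 2.99 and 1.32 FPKM in MCT lungs, against 4.83, 1.73, 2.16 and 3.39 FPKM in control lungs, a log2 fold change of 0.34 ± 0.57 (SE). Dnah1 (chr16:7345978-7408265, minus strand) had 5.18, 1.79, 1.87 and 1.04 FPKM in MCT lungs, against 3.23, 1.29, 1.22 and 2.52 FPKM in control lungs, a log2 fold change of 0.27 ± 0.54. The ranges overlapped in both genes, and without MCT_Lung1 and Ctrl_Lung1 all 5 inner arm chains had a negative log2 fold change, with a median of -0.20.

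The intermediate chains Dnai1 and Dnai2 anchor outer arm motors to the doublets. Dnai2 (chr10:103266296-103301544, plus strand) had 8.97, 3.45, 3.79 and 2.90 FPKM in MCT lungs, against 6.11, 2.02, 2.33 and 3.81 FPKM in control lungs. Dnai1 (chr5:57947716-58017992, plus strand) had 8.60, 3.11, 3.72 and 1.81 FPKM in MCT lungs, against 4.95, 2.17, 2.79 and 4.48 FPKM in control lungs. Library 1 of each group was the highest of its group in both genes, the groups overlapped, and the log2 fold changes were 0.43 ± 0.45 for Dnai2 and 0.27 ± 0.47 for Dnai1.

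The 7 dynein assembly factors fell into genes that followed the library pattern and genes that hardly did. Dnaaf1, Dnaaf3 and Cfap300, named here with their values seen, ran from 8.20 to 14.17 FPKM in MCT_Lung1 and from 1.77 to 4.21 FPKM in MCT_Lung4. Cfap298 (chr11:31094084-31103520, minus strand), whose promoter carries the X-box printed above, had 50.67, 36.77, 38.78 and 35.88 FPKM in MCT lungs, against 37.78, 32.98, 34.68 and 35.08 FPKM in control lungs. Its highest library was 1.54 times its lowest, and its log2 fold change was 0.21 ± 0.12 (SE), adjusted p = 0.269 in edgeR. Dnaaf5 (chr12:17545468-17584466, minus strand) had 11.77, 8.44, 8.22 and 7.69 FPKM in MCT lungs, against 11.01, 8.85, 9.24 and 10.45 FPKM in control lungs, a log2 fold change of -0.13 ± 0.15. Dnaaf2, which works with chaperones, was highest in Ctrl_Lung1, at 5.07 to 6.71 FPKM in MCT lungs and 4.25 to 7.71 FPKM in control lungs. Dnaaf3 overlaps the cardiac gene Tnni3 by 197 bases on the same strand, and Tnni3 had 30.01 FPKM in MCT_Lung1 and 2.69 to 5.44 FPKM in the other MCT libraries.

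The radial spokes carry signals from the central pair to the dyneins, and 7 members belong to them or to the neighbouring calmodulin spoke complex. MCT_Lung1 was the highest of the 8 libraries for all 7. Rsph1 (chr20:9998701-10013559, minus strand), a spoke head protein, had 27.22, 10.20, 13.23 and 8.01 FPKM in MCT lungs, against 16.54, 7.60, 8.34 and 10.99 FPKM in control lungs, a log2 fold change of 0.44 ± 0.40 (SE). Rsph9 (chr9:17225122-17245093, plus strand), also of the spoke head, had 23.47, 11.10, 13.72 and 10.21 FPKM in MCT lungs, against 21.47, 11.95, 10.19 and 12.67 FPKM in control lungs, a log2 fold change of 0.06 ± 0.32. Both showed 1 high library in each group. Rsph9 overlaps Mrps18a on the opposite strand over 6709 bases, with Mrps18a at a mean of 47.2 FPKM, and the sources used here do not state whether counting used strand. Rsph4a was listed at 0 in MCT_Lung4 and at 1.59 to 7.29 FPKM in the other 7 libraries, and it was the only one of these 7 genes listed at 0 in any library.

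The nexin-dynein regulatory complex links neighbouring doublets. Drc1 (chr6:27425235-27460038, minus strand), its scaffold, had 15.21, 3.79, 5.05 and 3.16 FPKM in MCT lungs, against 9.05, 2.99, 3.82 and 5.87 FPKM in control lungs, a log2 fold change of 0.34 ± 0.56 (SE). Drc3 (chr10:46722109-46762250, plus strand) had 8.92, 4.90, 4.56 and 2.50 FPKM in MCT lungs, against 6.76, 2.46, 2.52 and 3.89 FPKM in control lungs, a log2 fold change of 0.43 ± 0.44. In both, MCT_Lung1 was at least 2.24 times the mean of the other MCT libraries and Ctrl_Lung1 at least 2.14 times the mean of the other control libraries.

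Cfap43, Cfap44, Cfap57, Cfap73 and Cfap100 hold or regulate inner arms, roles known mainly from algae and ciliates. Cfap100 (chr4:122314458-122337389, minus strand) had 32.84, 8.71, 9.24 and 4.69 FPKM in MCT lungs, against 20.97, 6.27, 8.61 and 10.75 FPKM in control lungs. Its highest value was 7 times its lowest, the largest ratio among members with a mean of at least 10 FPKM, and its log2 fold change was 0.27 ± 0.64 (SE). Cfap43 (chr1:267511523-267598639, minus strand) had 15.19, 5.64, 7.92 and 3.64 FPKM in MCT lungs, against 10.22, 3.82, 4.95 and 8.37 FPKM in control lungs, a log2 fold change of 0.25 ± 0.48. MCT_Lung1 was highest of the 8 libraries and Ctrl_Lung1 second in all 5 genes of the class.

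Cfap69, Cfap74 and Cfap221 belong to the central apparatus, the projections on the central pair. Cfap69 (chr4:25538497-25609652, plus strand) had 3.82, 3.31, 2.75 and 2.04 FPKM in MCT lungs, against 4.12, 1.91, 2.39 and 3.15 FPKM in control lungs, with Ctrl_Lung1 the highest library. Cfap74 (chr5:172825072-172858053, plus strand) had 2.12, 0.89, 0.43 and 0.69 FPKM in MCT lungs, against 1.37, 0.41, 0.86 and 1.20 FPKM in control lungs. Cfap221 (chr13:35953088-36022197, minus strand) had 2.43, 0.55, 0.59 and 0.36 FPKM in MCT lungs, against 1.12, 0.42, 0.20 and 0.46 FPKM in control lungs. Cfap221 had the largest log2 fold change of the 54, 0.84 ± 0.71 (SE), adjusted p = 0.457 in edgeR, on an estimated 5.7 to 72.2 read pairs per library. Its groups overlapped, and without MCT_Lung1 its log2 fold change was -0.16.

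The doublets are lined inside by microtubule inner proteins and by tektins, which form filaments along them. Cfap126 (chr13:89480058-89495949, plus strand) followed the library pattern, with 37.29, 13.05, 17.57 and 7.19 FPKM in MCT lungs, against 25.73, 9.66, 9.25 and 15.58 FPKM in control lungs, a log2 fold change of 0.33 ± 0.52 (SE). Cfap20 (chr19:10024947-10038784, plus strand), the most abundant member, had 51.65, 38.93, 42.68 and 36.43 FPKM in MCT lungs, against 46.26, 42.40, 44.23 and 46.80 FPKM in control lungs, a log2 fold change of -0.08 ± 0.11. Its highest library was 1.42 times its lowest, against 5.19 times for Cfap126.

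Tekt2 (chr5:144341946-144345531, minus strand) had 18.29, 15.62, 11.05 and 12.00 FPKM in MCT lungs, against 11.79, 8.26, 9.93 and 9.12 FPKM in control lungs. Its means were 14.2 ± 3.34 FPKM in MCT lungs and 9.78 ± 1.51 FPKM in control lungs (SD, n = 4 each), with Ctrl_Lung1 above MCT_Lung3 as the only overlap. Its log2 fold change was 0.54 ± 0.19 (SE), with a p of 0.0167 and an adjusted p of 0.0702 in edgeR. Tekt3 (chr10:49472460-49506465, plus strand) had 2.60, 2.36, 2.29 and 1.3 FPKM in MCT lungs, against 1.65, 1.19, 1.28 and 1.68 FPKM in control lungs, a log2 fold change of 0.56 ± 0.27 and an adjusted p of 0.175. Here MCT_Lung4 was the only MCT library within the control range. Tekt5 (chr10:5352933-5389737, plus strand), best known from sperm flagella, had 2.94, 2.63, 4.90 and 4.26 FPKM in MCT lungs, against 4.88, 3.63, 3.44 and 4.61 FPKM in control lungs. It had the most negative log2 fold change, -0.17 ± 0.23, and MCT_Lung1 was among its lower libraries.

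Of the 8 other Cfap genes, Cfap36 came nearest to the threshold. Cfap36 (chr14:113618964-113644779, minus strand) encodes a ciliary protein that binds the small GTPase ARL3. It had 39.94, 29.70, 30.23 and 26.14 FPKM in MCT lungs, against 26.57, 18.83, 20.15 and 24.65 FPKM in control lungs. The means were 31.5 ± 5.91 FPKM in MCT lungs and 22.6 ± 3.66 FPKM in control lungs (SD, n = 4 each), with Ctrl_Lung1 just above MCT_Lung4. The log2 fold change was 0.49 ± 0.15 (SE), with a p of 0.0114 and an adjusted p of 0.0538 in edgeR. Without MCT_Lung1 and Ctrl_Lung1 the log2 fold change of Cfap36 was 0.42 ± 0.12, with an adjusted p of 0.0374 in edgeR. In that fit 10.8% of all genes tested were called higher. Leaving out Ctrl_Lung1 takes away the only overlap of Cfap36 by construction, so this is a description only. Cfap410 (chr20:11417429-11424324, minus strand), a ciliary base protein, had 9.65, 10.54, 10.57 and 11.70 FPKM in MCT lungs, against 12.10, 10.79, 8.92 and 11.33 FPKM in control lungs, a log2 fold change of -0.02 ± 0.12. It was the flattest member, its highest library being 1.36 times its lowest, and MCT_Lung1 was its lowest MCT library.

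**Figure D4:**
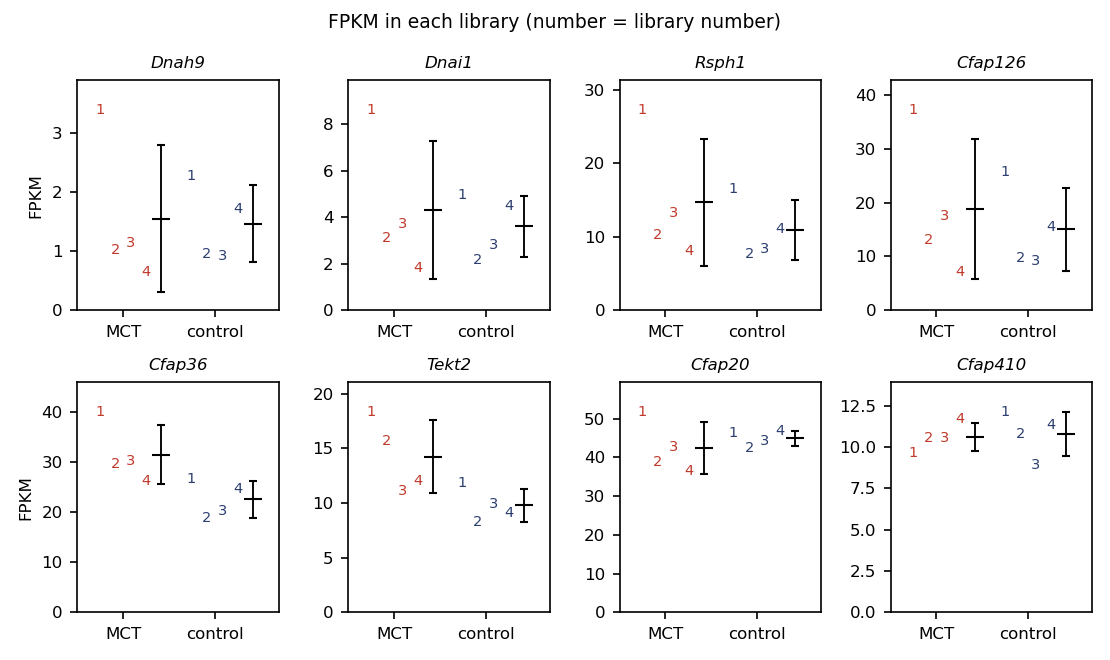
FPKM of 8 axoneme genes in each library, shown by library number (red MCT, blue control), with the group mean and SD (n = 4 each) as a cross and bar. In the upper row, Dnah9, Dnai1, Rsph1 and Cfap126, library 1 of each group lies above the rest of its group. In the lower row, Cfap36 and Tekt2 lie higher in MCT with an overlap, and Cfap20 and Cfap410 stay within 1.42 times between any libraries.

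The members thus differed among themselves in how far they followed MCT_Lung1 and Ctrl_Lung1. In 44 of the 54, MCT_Lung1 was at least 1.5 times the mean of the other MCT libraries, and in 40 Ctrl_Lung1 was also at least 1.5 times the mean of the other control libraries. The other 10 were Cfap20, Cfap298, Cfap36, Tekt2, Cfap410, Dnaaf5, Dnaaf2, Tekt5, Cfap69 and Tekt3. The standard error of the log2 fold change was 0.17 for the median gene of those 10 and 0.52 for the median gene of the 44. The 10 were picked out by their small deviation in MCT_Lung1, which also lowers that error, so this is a description only.

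Most of the other axoneme genes and ciliated cell markers, which the symbol rule did not take, were also highest in MCT_Lung1. Of 61 other axoneme genes tested, none was called in MCT against control lungs (background 20.5%), the median log2 fold change was 0.28, and MCT_Lung1 was highest of the 8 libraries for 54 (88.5%). Of 19 ciliated cell markers tested, 4 of them also on the other axoneme list, none was called, the median was 0.31, and MCT_Lung1 was highest for 16 (84.2%). These were the markers found by symbol out of 22 listed, and Foxj1 was not found, so its level is not given. Tppp3 and Rfx3 among the markers and the light chain Dnal1 among the other axoneme genes, named with their values seen, were not highest in MCT_Lung1. The mean log2 CPM of those 19 markers was 3.99, 2.54, 2.36 and 1.78 in MCT_Lung1 to MCT_Lung4, and 3.37, 2.24, 2.56 and 2.78 in Ctrl_Lung1 to Ctrl_Lung4. Their summed FPKM was 420 to 908 in MCT lungs and 615 to 883 in control lungs, most of it from Tppp3, with 316 to 628 FPKM in MCT lungs and 536 to 708 FPKM in control lungs. Dynlrb2, a dynein light chain, had 65.56, 27.51, 32.94 and 16.59 FPKM in MCT lungs, against 50.08, 13.63, 18.54 and 28.98 FPKM in control lungs. Mcidas, an inducer of multiciliated cells, was listed at 0 in MCT_Lung2, MCT_Lung3 and Ctrl_Lung2, and Lrrc23, a spoke protein, at 0.11 and 0 FPKM in MCT_Lung3 and MCT_Lung4 against 12.66 or more in the other MCT libraries. The part of ciliated cell content in the members' values was not tested. Fits with a marker score, the mean log2 CPM of those 19 markers, cannot decide it, as the score is itself made of ciliated cell RNAs.

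With that score as a covariate, 4 of the 54 members were called higher in MCT lungs (7.41%, against 12.0% of all genes tested called higher) and none lower. They were Cfap36, with a log2 fold change of 0.50 ± 0.08 (SE) and an adjusted p of 0.00275 in edgeR, Tekt2, with 0.55 ± 0.13 and 0.0154, Cfap45, with 0.41 ± 0.12 and 0.0406, and Tekt1, with 0.44 ± 0.14 and 0.0494. Cfap45 and Tekt1 are a doublet inner protein and a tektin. Cfap45 had 27.31, 10.46, 12.86 and 8.27 FPKM in MCT lungs, against 15.64, 7.18, 8.49 and 12.17 FPKM in control lungs. Tekt1 had 18.21, 7.47, 8.43 and 5.22 FPKM in MCT lungs, against 10.51, 5.12, 5.00 and 7.67 FPKM in control lungs. In both, MCT_Lung1 alone lay above the control range and the other 3 MCT libraries lay within it, and without MCT_Lung1 the log2 fold changes were -0.05 for Cfap45 and -0.02 for Tekt1. The low Lrrc23 values lowered the score in MCT_Lung3 and MCT_Lung4. In a fit chosen after seeing the data, with the score over the other 18 markers, Cfap36 (0.43 ± 0.07, adjusted p = 0.00445 in edgeR) and Tekt2 (0.50 ± 0.14, 0.0334) were called higher (3.7% of members, against 12.2% of all genes tested). Cfap45 and Tekt1 were no longer called there, with adjusted p-values of 0.115 and 0.183, and the members' median log2 fold change was -0.02.

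Genes of related processes were also set beside the members. Intraflagellar transport carries cargo along every cilium, motile or not. None of its 28 genes tested was called (background 20.5%), with a median log2 fold change of -0.01. MCT_Lung1 was 1.38 times the other MCT libraries over those genes, against 3.17 times over the axoneme genes. Ift46 had 30.08, 25.09, 28.59 and 25.24 FPKM in MCT lungs, against 30.98, 29.05, 27.34 and 34.06 FPKM in control lungs. Of 12 regulators of multiciliation tested, 7 also served as ciliated markers. Among the 12, Plk4 and Tfdp1 were called higher in MCT lungs, against 20.5% of all genes tested called in either direction. Plk4, a kinase that starts centriole duplication in dividing cells too, had 3.02, 3.07, 3.54 and 3.23 FPKM in MCT lungs, against 1.13, 0.86, 1.3 and 1.29 FPKM in control lungs, a log2 fold change of 1.49 ± 0.16 (SE), adjusted p = 0.00064 in edgeR. Tfdp1, a partner of E2F factors in the cell cycle as well, had 30.59, 30.96, 33.17 and 32.95 FPKM in MCT lungs, against 26.04, 23.57, 20.75 and 23.15 FPKM in control lungs, a log2 fold change of 0.45 ± 0.08, adjusted p = 0.0052. By FPKM, MCT_Lung1 was the lowest MCT library for both. By log2 CPM it was the lowest MCT library for 0 of the 12 regulators and the highest for 10. At the median over the 12 it was 2.12 times the other MCT libraries.

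Genes of neighbouring cell types moved with the libraries to different degrees. The calls among them stand beside 20.5% of all genes tested called in either direction. Scgb1a1, the main secretory product of club cells, had 30469, 11796, 15963 and 9029 FPKM in MCT lungs, against 21690, 9771, 11007 and 13835 FPKM in control lungs, which is the order of libraries seen for Dnah9 in the MCT group. Over 15 club and secretory genes tested, MCT_Lung1 was 1.57 times and Ctrl_Lung1 1.36 times the other libraries of its group, and the cytochromes Cyp2b1 and Cyp4b1 were called lower, with log2 fold changes of -0.87 ± 0.18 and -0.69 ± 0.16. Over 11 cardiac myocyte genes, MCT_Lung1 was 5.66 times and Ctrl_Lung1 1.21 times the other libraries of its group, with FPKM summed over those 11 genes of 32.0 to 164 in MCT lungs and 32.9 to 71.8 in control lungs. Pln was the only cardiac gene called, higher in MCT lungs by 0.94 ± 0.26 on the log2 scale. Over 10 alveolar type 1 genes and 10 alveolar type 2 genes, MCT_Lung1 was 1.05 and 1.07 times the other MCT libraries, while 2 of the type 1 genes were called lower and, of the type 2 genes, 5 lower and 1 higher. Of the sparse lists, none of 5 airway basal and 5 neuroendocrine genes was called. Of 7 cartilage genes only Sox9 was, lower by a log2 fold change of -2.42 ± 0.33. Over the 5 neuroendocrine genes, with means of 0.0925 to 1.263 FPKM, MCT_Lung1 was 4.075 times and Ctrl_Lung1 2.165 times the other libraries of its group. Over the cartilage genes these ratios were 1.593 and 1.61, and over the basal genes 1.022 and 1.539. How much airway or heart tissue in a sample contributed to the axoneme values was not tested.

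**Figure D5:**
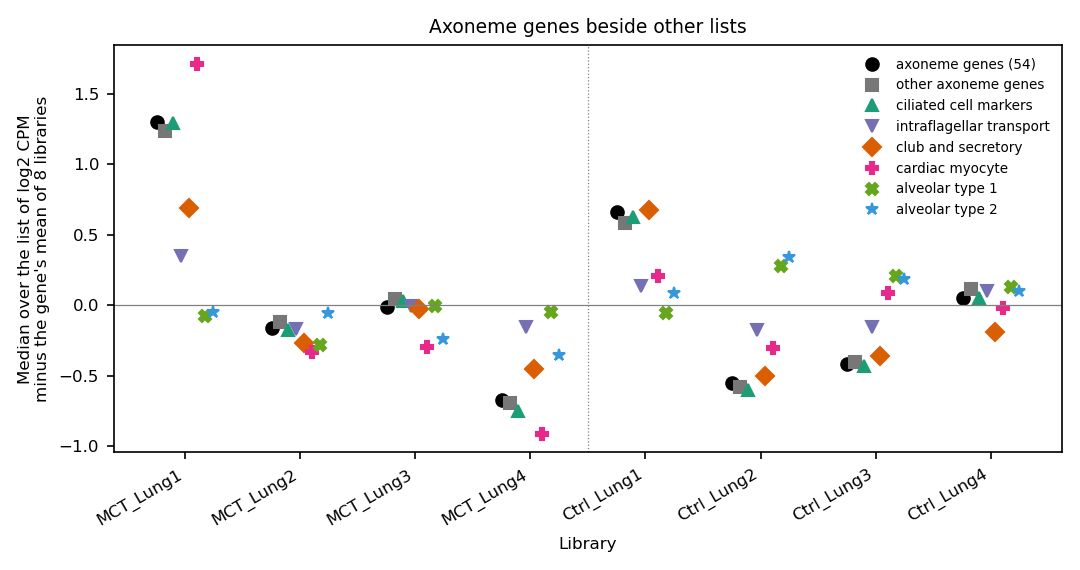
Median over each gene list of log2 CPM minus the gene's mean over 8 libraries, by library. The 54 axoneme genes, other axoneme genes and ciliated markers lie close together in every library, from about 1.3 in MCT_Lung1 to about -0.7 in MCT_Lung4, while both alveolar lists lie within 0.36 of 0.

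Most of the symbols were given for a role in cilia or flagella, so the annotation of the members is no independent finding. In the gene ontology terms of the deposited table, 42 of the 54 (77.8%) carried a term with cilium, flagellum or axoneme, against 3.49% of the 18124 genes with a mean of at least 0.1 FPKM, and 17 (31.5%) carried a term with sperm, against 2.69%. Chromosome 10 held 9 of the 54 (16.7%), against 8.38% of those 18124 genes. Mean levels ran from 0.304 FPKM for Cfap58l1 to 43.7 FPKM for Cfap20, with 10 members at 10 FPKM or more and 13 under 2 FPKM. The members nearest to the minimum were Cfap58l1, Cfap221 at 0.766 FPKM and Dnah7 at 0.815 FPKM. Just outside were Dnah17 at 0.0638 FPKM, Dnah8 at 0.0413 FPKM and Dnah5 at 0.035 FPKM, while Rsph6a had 0.00625 FPKM and Cfap97d1 and Cfap58 were listed at 0 in every library.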

How the data were processed

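RNA of rat lung was sequenced in 4 MCT and 4 control libraries after oligo(dT) selection, per the labels' protocols. Cutadapt 1.9, HISAT2 2.0.4, StringTie 1.3.4d, edgeR and the build Rnor_6.0 are named in the submitters' processing notes, without order or settings. The deposited table gives an estimated count and an FPKM value for each gene in each library, per the file headers. The low values of these estimated counts, all whole numbers as deposited, step by about 3.67 units (strength of that spacing 0.134, where 1 is perfect). One step was taken as 1 read pair, which the labels do not state. Library totals were divided by 3.67 on that assumption, and all estimates of read pairs given here rest on it. Low FPKM values rest on few pairs.

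The counts as deposited were fitted with edgeR 4.0.16 (R 4.3.3, filterByExpr, TMM, robust quasi-likelihood test, two-sided), with Benjamini-Hochberg adjustment over all 16715 genes tested. All 54 members passed the filter. Log2 CPM used a prior count of 2. Limma 3.58.1 and DESeq2 1.42.0 were alternatives, and the edgeR step was checked on simulated data. The members and lists were chosen with earlier results of these data known. Named with a value in every library were the 2 members of highest mean FPKM in each structural class, members past the threshold, and the 3 largest positive and negative log2 fold changes, 24 genes. From other lists, genes were named by mean FPKM or by passing the threshold; others named were chosen after their values were seen.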

Additional observations from a re-analysis of the deposited data

Results flagged for a closer look

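Cfap298 in the MCT group was flagged because 1 library lay far from the others. MCT_Lung1 had 50.67 FPKM, against 35.88 to 38.78 FPKM in the other MCT libraries, and on the log2 CPM scale used for this check the gap to its nearest neighbour was 0.835 of the range of the group. This was 1 of 50 sets of 4 libraries examined, of which chance alone would flag about 2.5. The sets covered only the 24 named members and the median over all members, in each group. Other members were not checked, among them Rsph4a, listed at 0 in MCT_Lung4.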

How the results depend on the processing

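Across 20 alternative fits of MCT against control lungs, the number of axoneme genes called higher was 0, except for 1 with the replicate number as a block, 4 with the ciliated marker score as covariate, 2 with that score without Lrrc23 (chosen after seeing the data), 1 without MCT_Lung1 and Ctrl_Lung1, 2 with DESeq2, 1 with limma voom sample weights, and 0 to 1 when each library was left out. No member was called lower in any fit. In the 12 fits other than those leaving out 1 library, 1436 to 2323 of all genes tested were called higher. The block gave the lowest of these, 1436 of 16715. Cfap36 was the single gene under the block (adjusted p = 0.0362) and under voom (0.0319), and when MCT_Lung4 or Ctrl_Lung1 was left out, and Tekt2 when MCT_Lung3 was. Leaving out each of those libraries takes away the only overlap of that gene by construction, so these leave-out calls are a description only. The number of all genes called was 1191 to 1946 higher and 975 to 1730 lower when a library was left out, lowest without MCT_Lung2. The members' median log2 fold change was -0.28 to 0.57 in those fits. Over all genes tested, deviations from the group mean had r = 0.11, 0.016, -0.017 and -0.085 between same-numbered libraries. Between differently numbered libraries r ran from -0.079 to 0.075. These values over all genes cannot decide whether the numbers pair the libraries. The block turned the log2 fold changes of Cfap74 (-0.010) and Dnah9 (-0.094). The covariate turned Dnah9 (-0.046), and limma on log2(FPKM + 0.5) also did (-0.047), as did pseudocounts of 0.1 (-0.089, with Cfap74 at -0.006) and 1 (-0.023).

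Without MCT_Lung1 and Ctrl_Lung1 the sign turned in Cfap410 (0.066), Rsph9 (-0.008), Cfap100 (-0.191), Cfap43 (-0.005), Drc1 (-0.088), Dnai1 (-0.137), Dnah12 (-0.091), Dnah1 (-0.107), Cfap74 (-0.299), Dnah11 (-0.139) and Dnah9 (-0.368). With the score without Lrrc23 it turned in Rsph9 (-0.065), Cfap100 (-0.158), Drc1 (-0.006), Dnai1 (-0.025), Dnah12 (-0.028), Dnah1 (-0.037), Cfap74 (-0.095), Dnah11 (-0.122) and Dnah9 (-0.270). Under voom it turned in Rsph9 (-0.076), Cfap100 (-0.179), Dnai1 (-0.006), Dnah1 (-0.013), Cfap74 (-0.168), Dnah11 (-0.152) and Dnah9 (-0.281). When libraries were left out in turn, the log2 fold change ran from -0.267 to 0.712 for Cfap126, -0.103 to 0.031 for Cfap410, -0.279 to 0.331 for Rsph9, -0.063 to 0.711 for Rsph1, -0.634 to 0.709 for Cfap100, -0.262 to 0.512 for Cfap43, -0.448 to 0.698 for Drc1, -0.083 to 0.822 for Dnai2, -0.328 to 0.514 for Dnai1, -0.407 to 0.659 for Dnah12, -0.406 to 0.569 for Dnah1, -0.106 to 0.266 for Cfap69, -0.517 to 0.381 for Cfap74, -0.433 to 0.495 for Dnah11, -0.659 to 0.381 for Dnah9 and -0.158 to 1.443 for Cfap221. None of these sign changes was in a called value. Of 480 values of named members, 409 kept direction and side of the threshold, 59 changed sign and 12 passed it; the causes were not tested. With counts divided by the spacing, 53 members were tested. Cfap221 rests on an estimated 5.7 to 72.2 read pairs per library, and what limits its precision was not tested.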
